A study of Homo sapiens with 6 samples.

Results

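The genes described here are 35 genes of cholesterol and fatty acid synthesis and its control by SREBP, the sterol regulatory element binding proteins. They were taken by their symbols from the deposited table, which holds 40173 genes with an Ensembl ID, and each symbol matched 1 gene. Their transcripts numbered 382, and the transcripts of each gene were summed. RNA was sequenced from HCT116, a human colorectal cancer line grown in medium with fetal bovine serum, after infection with a virus that was either a lentiviral control (MOCK) or one that carried the CYGB coding region fused with FLAG. CYGB, cytoglobin, is a haem protein of the globin family. Cells of both groups were selected with puromycin and used as stable populations, with 3 libraries per group that the submitters call biological replicates. Overexpression of CYGB was constitutive in the second group.

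Cells make cholesterol from acetyl-CoA through the mevalonate pathway, which ends in farnesyl pyrophosphate, and then through squalene, lanosterol and a series of sterol intermediates. Fatty acids are built from the same acetyl-CoA and are then elongated and desaturated for membrane lipids. SREBF1 and SREBF2 encode the transcription factors that drive both routes. When sterols are low, SCAP carries these factors to the Golgi, where they are cut and released to the nucleus. When sterols are plentiful, INSIG1 holds SCAP in the endoplasmic reticulum.

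Library totals were 58138393 to 66035266 counts, of which 18.6 to 19.5% lay on assembled transcripts without a gene, which were left out of the gene tests. Counts of CYGB differed between the groups as labelled, with 10, 28 and 34 in MOCK, against 34935, 27681 and 32333 in CYGB-overexpressing cells. These gene counts do not separate the transgene from the cells' own CYGB. Of 8 epithelial markers, 6 averaged at least 1 TPM (a level corrected for transcript length and library size), and CEACAM5 and VIL1 were below this. Their summed level was 5185 to 5647 TPM in MOCK and 5233 to 5571 TPM in CYGB. Of 10 markers of fibroblasts, blood cells and endothelium, only COL1A1 averaged at least 1 TPM, the sums were 18.2 to 19.5 TPM in MOCK and 20.0 to 26.3 TPM in CYGB, and PTPRC, CD3E and PECAM1 were near 0.

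At the gene level, no gene of the 35 changed past either threshold when CYGB was compared with MOCK. All 35 passed the expression filter, and fold changes are those of edgeR's quasi-likelihood test, given as log2 of CYGB over MOCK with the standard error (SE). The threshold of the study's methods, an unadjusted p of at most 0.01 together with a difference of at least 2-fold, was passed by 0 of 35 genes, against 0.565% of all 19987 genes tested. An adjusted p under 0.05 (Benjamini-Hochberg over all genes tested) was reached by 0 of 35, against 0.0550% of all genes. By edgeR, 2 of 35 had an unadjusted p under 0.05 (5.71%, against 4.54% of all genes), namely SCD and IDI1. DESeq2 gave 0 genes at an adjusted p under 0.05 (0.540% of all genes) and 2 at an unadjusted p under 0.05 (6.14% of all genes), and these were FADS2 and SCD, while IDI1 had an unadjusted p of 0.0576 in DESeq2. None of these shares, which count both directions together, stood above the background of all genes by more than 1.5-fold.

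The fold changes were small. The median log2 fold change of the 35 genes was -0.06, beside -0.01 for all genes tested, and 22 genes lay below 0 and 13 above it, while 51.2% of all genes lay below 0. Regardless of sign, the median log2 change was 0.10 for these genes and 0.18 for all genes. For 29 of the 35 genes the 95% confidence interval of the ratio lay within 2-fold in either direction, which held for 56.0% of all genes. For 25 of the 35 it lay within 1.5-fold, a limit that was not counted over all genes. These genes were also more highly expressed, with a median of 83.9 CPM (counts scaled to library size) beside 9.78 CPM for all genes. The remaining 6 intervals, those of ELOVL5, LPIN1, INSIG1, SC5D, STARD4 and DHCR7, were wider and include changes of over 2-fold. In RNA of whole cultures, fewer cells with a transcript and less of it per cell cannot be told apart.

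**Figure D1:**
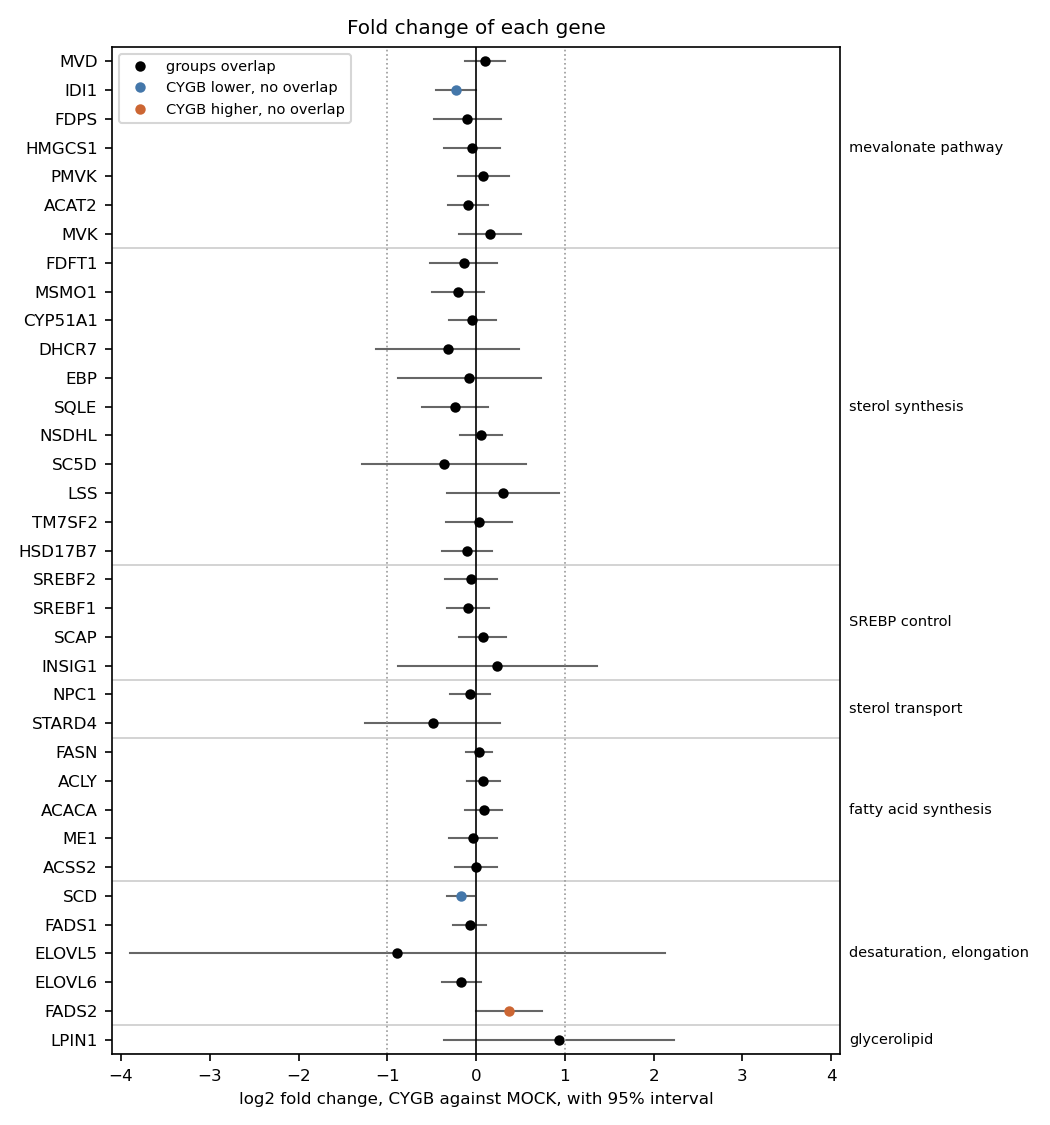
Log2 fold change of CYGB against MOCK for each of the 35 genes (points) with its 95% interval (bars), in the order of their roles and levels. The dotted lines mark a 2-fold change, and coloured points are the 3 genes whose CYGB and MOCK libraries do not overlap. Most points lie close to 0, and ELOVL5 has the widest interval.

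The levels per length spanned a wide range. SCD had the highest mean level over the 6 libraries at 577 TPM, followed by FASN at 454 TPM and ACLY at 212 TPM. MVD (139 TPM), SREBF2 (124 TPM), SREBF1 (115 TPM) and FDFT1 (114 TPM) came next, and LPIN1 was the lowest at 4.98 TPM. Together the 35 genes held 0.625 to 0.673% of the gene counts of each library.

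**Figure D2:**
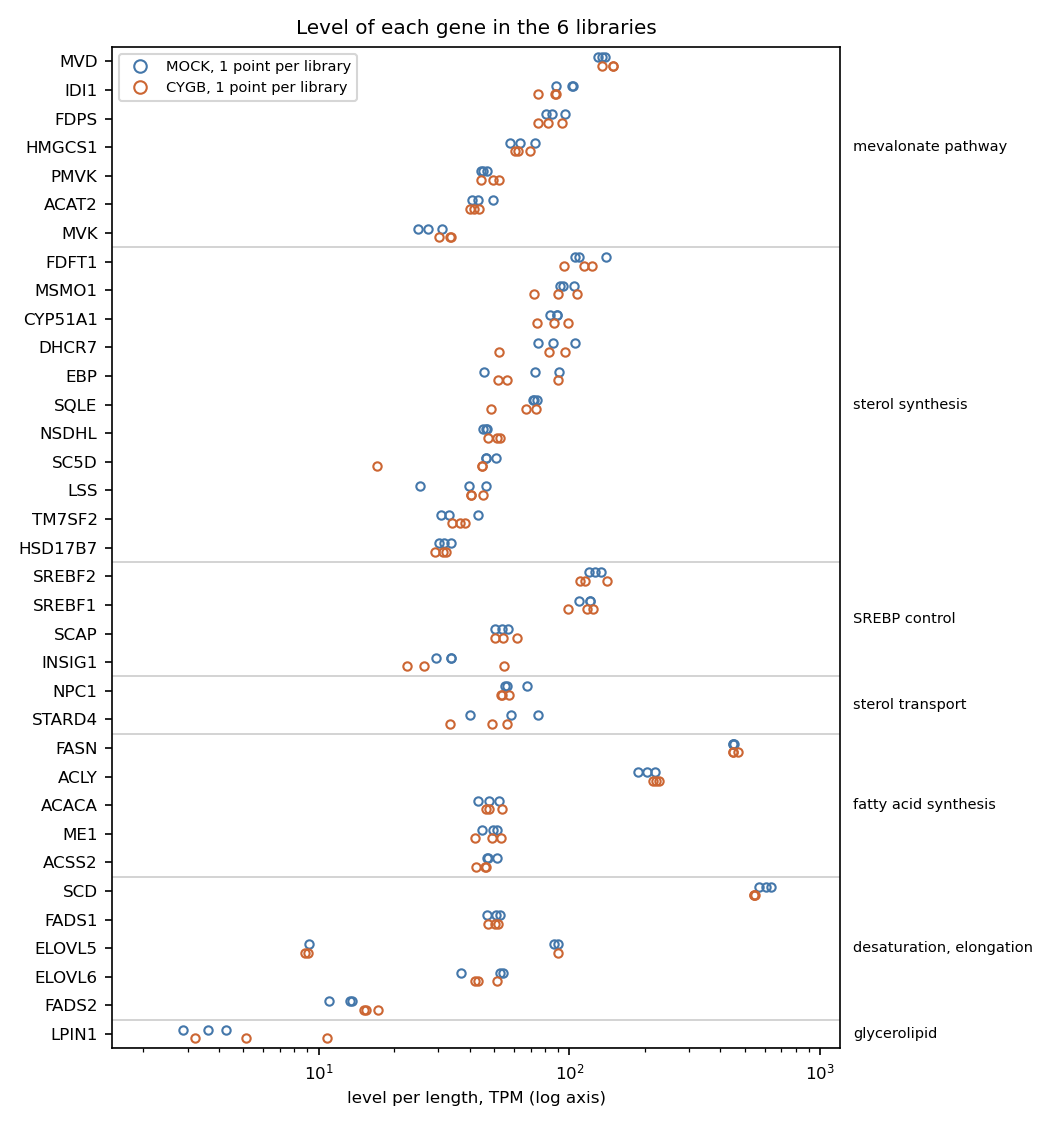
Level per length (TPM, log axis) of each gene in the 3 MOCK and 3 CYGB libraries, 1 point per library, grouped by role. SCD, FASN and ACLY are the highest, LPIN1 and FADS2 are among the lowest, and ELOVL5 falls into a high and a low level in both groups.

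The early enzymes of the mevalonate pathway were represented by 7 genes. IDI1 interconverts the isoprene units isopentenyl and dimethylallyl pyrophosphate. It had 95.6, 103 and 104 CPM in MOCK and 92.9, 87.1 and 78.9 CPM in CYGB. All 3 CYGB libraries were below all 3 MOCK libraries, although the closest pair differed by little. For IDI1 the log2 fold change was -0.23 (SE 0.09, unadjusted p = 0.0485, adjusted p = 0.963 by edgeR's quasi-likelihood test, Benjamini-Hochberg adjusted). Genes with an unadjusted p under 0.05 and a lower level in CYGB made up 2.39% of all genes, and IDI1 and SCD were the 2 such genes of the 35 (5.71%). That share is above the background but rests on 2 genes.

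MVD, the mevalonate diphosphate decarboxylase, had the highest level of these 7 genes, at 112, 113 and 110.5 CPM in MOCK and 125, 107 and 128 CPM in CYGB. Its groups overlapped, since CYGB 2 was below and CYGB 1 and CYGB 3 were above the MOCK libraries (log2 fold change 0.10, SE 0.09). MVK, the mevalonate kinase, had 28.4, 37.3 and 33.9 CPM in MOCK and 39.9, 33.2 and 37.8 CPM in CYGB. Its log2 fold change was 0.15 (SE 0.14), and 0.05 without MOCK 1, its lowest library. HMGCS1, PMVK, ACAT2 and FDPS, which make HMG-CoA, phosphorylate phosphomevalonate, condense acetyl-CoA and make farnesyl pyrophosphate, had log2 fold changes of -0.10 to 0.08 with overlapping groups. Summed over the 7 genes, the MOCK libraries had 495 ± 25.5 CPM and the CYGB libraries 483 ± 10.1 CPM (SD, n = 3 each).

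Of the 11 genes from squalene to cholesterol, 8 had a log2 fold change below 0, none had an unadjusted p under 0.05, and they summed to 813 ± 31.3 CPM in MOCK, against 749 ± 100.4 CPM in CYGB (SD, n = 3 each). FDFT1, the squalene synthase, had the highest level per length of these at 121, 153 and 119 CPM in MOCK and 127, 98.3 and 131 CPM in CYGB, with a log2 fold change of -0.14 (SE 0.15). SQLE, the squalene epoxidase, had 107, 107 and 106 CPM in MOCK and 107, 92.4 and 71.3 CPM in CYGB. The MOCK libraries of SQLE lay within a narrow band, CYGB 1 lay in the same band, and CYGB 2 and CYGB 3 lay below it (log2 fold change -0.24, SE 0.15, unadjusted p = 0.169 by edgeR's quasi-likelihood test). MSMO1, which removes methyl groups at C4 of the sterol ring, had a similar order, with 107, 111 and 104 CPM in MOCK and 107, 92.6 and 80.0 CPM in CYGB. Its log2 fold change was -0.21 (SE 0.12, unadjusted p = 0.136 by edgeR's quasi-likelihood test). Without CYGB 3 the log2 fold changes of SQLE and MSMO1 were -0.09 and -0.10. Over the main fit and all alternatives run, they ranged from -0.38 to -0.09 for SQLE and from -0.48 to -0.10 for MSMO1.

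SC5D, the lathosterol oxidase, had the lowest log2 fold change of these 11 genes (-0.36, SE 0.38). It had 50.3, 53.5 and 50.5 CPM in MOCK and 49.4, 52.6 and 18.4 CPM in CYGB. Only CYGB 3 was low, the other 5 libraries lay close together, and without CYGB 3 the log2 fold change was -0.01. LSS, the lanosterol synthase, had the highest log2 fold change of these 11 genes (0.30, SE 0.26). It had 76.0, 38.0 and 68.9 CPM in MOCK and 81.4, 70.7 and 73.2 CPM in CYGB, so that MOCK 2 alone was low. Leaving out MOCK 2 gave LSS a log2 fold change of 0.05. The other genes of this step, CYP51A1, TM7SF2, NSDHL, HSD17B7, EBP and DHCR7, encode enzymes that turn lanosterol into cholesterol and had log2 fold changes of -0.32 (DHCR7) to 0.05 (NSDHL), all with overlapping groups.

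CYGB 3 was the library in which the most genes were at their lowest, 9 of 35: ELOVL5, ELOVL6, FADS1, ME1, IDI1, CYP51A1, MSMO1, SC5D and SQLE. It was also the library in which 8 genes were at their highest, namely ACLY, ACSS2, FASN, FDPS, MVD, NSDHL, INSIG1 and SREBF2. CYGB 1 was lowest for 6 genes and highest for 10, and CYGB 2 was lowest for 8 and highest for 0. Each MOCK library was lowest for 4 genes, and MOCK 1, MOCK 2 and MOCK 3 were highest for 1, 9 and 7. These counts were made for the 35 genes only and not over all genes. They describe the libraries and cannot be read as a trait of these genes.

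Among the 4 genes of SREBP control, SREBF2 had the highest level per length. It had 314, 345 and 327 CPM in MOCK and 288, 289 and 372 CPM in CYGB. CYGB 1 and CYGB 2 were below and CYGB 3 was above all MOCK libraries, and the log2 fold change was -0.06 (SE 0.12). SREBF1 had 184, 178 and 151 CPM in MOCK and 162, 152 and 165 CPM in CYGB (log2 fold change -0.09, SE 0.10). SCAP differed by 0.08 on the log2 scale (SE 0.11).

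INSIG1 had 36.8, 38.2 and 39.3 CPM in MOCK and 24.2, 29.5 and 81.2 CPM in CYGB. The 3 MOCK libraries were close together, while CYGB 1 and CYGB 2 were below them and CYGB 3 was far above them. INSIG1 had a log2 fold change of 0.24 (SE 0.46), and of -0.50 without CYGB 3. INSIG1 is both a brake on SREBP and one of its target genes.

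A sterol regulatory element was sought by its letters in the 250 bases before each annotated start of 31 of the 35 genes, which had 43 such windows in RefSeq (GRCh38.p14). ACAT2, FDFT1, FASN and SQLE had no window in the table used. Read on both strands, the consensus TCACNCCAC was present in 1 of 43 windows, that of SREBF2, and in 0.883% of all 35116 windows of that length. The octamer CACCCCAC was found in the same single window (2.43% of all windows), where it is part of the consensus match. CCAAT, the letters bound by the factor NF-Y, was in 58.1% of the 43 windows and in 32.0% of all windows, and GGGCGG, the GC box, in 86.0% and 42.6%. E-boxes (CACGTG) were in 11.6% and 6.34%. The GC box was more frequent in windows of coding genes (53.7%) than in all windows, and a match describes letters, not binding. Elements further away or with other letters were not sought, so a window without a match does not show that a gene lacks an element. The SREBF2 window is shown because it holds the consensus, with the consensus and the CCAAT match (on the opposite strand) in capitals, on the plus strand of GRCh38.p14 at chr22:41832855-41833104.
SREBF2 upstream: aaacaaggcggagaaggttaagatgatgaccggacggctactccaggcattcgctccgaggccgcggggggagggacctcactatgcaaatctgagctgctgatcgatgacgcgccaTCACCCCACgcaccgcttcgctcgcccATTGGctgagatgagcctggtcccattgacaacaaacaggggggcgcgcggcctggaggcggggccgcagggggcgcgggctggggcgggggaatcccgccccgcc

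STARD4 and NPC1, which move cholesterol between membranes and out of late endosomes, were both lower in the mean in CYGB without passing any test. STARD4 had 70.9, 127 and 97.9 CPM in MOCK and 45.2, 76.4 and 89.7 CPM in CYGB, a log2 fold change of -0.49 (SE 0.31, unadjusted p = 0.170 by edgeR's quasi-likelihood test), which was -0.25 without CYGB 1 and -0.26 without MOCK 2. The spread lay mostly in 1 of its transcripts, ENST00000512160, with 941, 3753 and 2418 counts in MOCK and 4, 1441 and 2384 in CYGB. Its transcript ENST00000296632 was steadier, at 2139, 2523 and 2245 counts in MOCK and 1815, 2056 and 1862 in CYGB. NPC1 had 88.8, 103 and 96.2 CPM in MOCK and 89.5, 88.0 and 97.1 CPM in CYGB (log2 fold change -0.07, SE 0.09).

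The 5 genes of fatty acid synthesis differed little, with log2 fold changes of -0.04 to 0.08, confidence limits between -0.31 and 0.30, and sums of 2543 ± 61.2 CPM in MOCK and 2618 ± 109 CPM in CYGB (SD, n = 3 each). FASN, the fatty acid synthase, had 1764, 1766 and 1845 CPM in MOCK and 1784, 1776 and 1937 CPM in CYGB. Its log2 fold change was 0.03 with a 95% interval from -0.12 to 0.18. ACACA, the acetyl-CoA carboxylase of the cytosol, had 170, 192 and 165 CPM in MOCK and 194, 178 and 187 CPM in CYGB (log2 fold change 0.08, SE 0.09). ME1, the malic enzyme that supplies NADPH, had 87.9, 89.7 and 77.2 CPM in MOCK and 91.7, 82.4 and 74.4 CPM in CYGB (-0.04, SE 0.11). ACLY, which makes cytosolic acetyl-CoA from citrate, differed by 0.08 (SE 0.08). ACSS2, which makes acetyl-CoA from acetate, differed by less than 0.01 at the gene level (SE 0.10), and its transcripts are described further on.

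SCD, the stearoyl-CoA desaturase that makes monounsaturated fatty acids, was one of 3 genes whose groups did not overlap. It had 1616, 1761 and 1673 CPM in MOCK and 1486, 1451 and 1543 CPM in CYGB. Each CYGB library was below each MOCK library, and the fitted ratio of CYGB to MOCK was 0.887. SCD had a log2 fold change of -0.17 (SE 0.06, 95% interval -0.32 to -0.02, unadjusted p = 0.0295, adjusted p = 0.963 by edgeR's quasi-likelihood test, Benjamini-Hochberg adjusted). Groups that did not overlap were found for 3 of 35 genes (8.57%), against 11.0% of all genes, with 2 lower in CYGB (SCD and IDI1, against 5.31% of all genes) and 1 higher (FADS2, against 5.72%). The count of genes without overlap was thus not above the background.

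FADS2, the delta-6 desaturase of polyunsaturated fatty acids, had 16.1, 16.6 and 13.9 CPM in MOCK and 23.2, 18.4 and 18.4 CPM in CYGB, and all CYGB libraries were above all MOCK libraries. Its log2 fold change was 0.37 (SE 0.15, unadjusted p = 0.0528 by edgeR's quasi-likelihood test, 0.0335 by DESeq2). FADS2 overlaps FEN1 on the same strand, which had a mean of 13630 counts beside 905 counts for FADS2, so reads of the pair may not be fully separated. FADS2 also overlaps FADS1 on the opposite strand, which had a mean of 5224.5 counts. FADS1, its delta-5 partner, and ELOVL6, which elongates C16 fatty acids, had log2 fold changes of -0.07 (SE 0.08) and -0.16 (SE 0.09).

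ELOVL5, the elongase of polyunsaturated fatty acids, took either of 2 levels in both groups. It had 6088, 688 and 6713 counts in MOCK and 631, 6378 and 489 in CYGB, or 129, 13.0 and 130.4 CPM and 12.5, 125.5 and 9.31 CPM. MOCK 1, MOCK 3 and CYGB 2 were high and MOCK 2, CYGB 1 and CYGB 3 were low, so the split crossed the groups. The log2 fold change of -0.89 had an SE of 1.24 and a 95% interval from -3.90 to 2.12, and without CYGB 2 it was -3.06. Nearly all counts lay on ENST00000304434, with 6073, 681 and 6694 counts in MOCK and 610, 6266 and 404 in CYGB. Among the 21225 rows without a gene, 7 had at least 2000 counts in each library where ELOVL5 was low and over 2-fold fewer in each of the other libraries, and 9 rows had the reverse pattern, high where ELOVL5 was high. The row with the sharpest opposite pattern had 13, 6920 and 11 counts in MOCK and 3677, 9 and 4526 in CYGB. The table gives these rows no position, and whether reads of ELOVL5 were assigned to any of them was not tested; these rows were sought after the values of ELOVL5 had been seen.

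LPIN1, a phosphatidate phosphatase of glycerolipid synthesis, had the highest log2 fold change of the 35 genes. It had 382, 308 and 508 counts in MOCK and 1366, 322 and 636 in CYGB. CYGB 1 was far above the rest and CYGB 2 lay among the MOCK libraries (log2 fold change 0.94, SE 0.53, unadjusted p = 0.129 by edgeR's quasi-likelihood test), and without CYGB 1 the log2 fold change was 0.22. The rise in CYGB 1 lay on ENST00000256720, with 189, 95 and 195 counts in MOCK and 1179, 87 and 445 in CYGB.

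**Figure D3:**
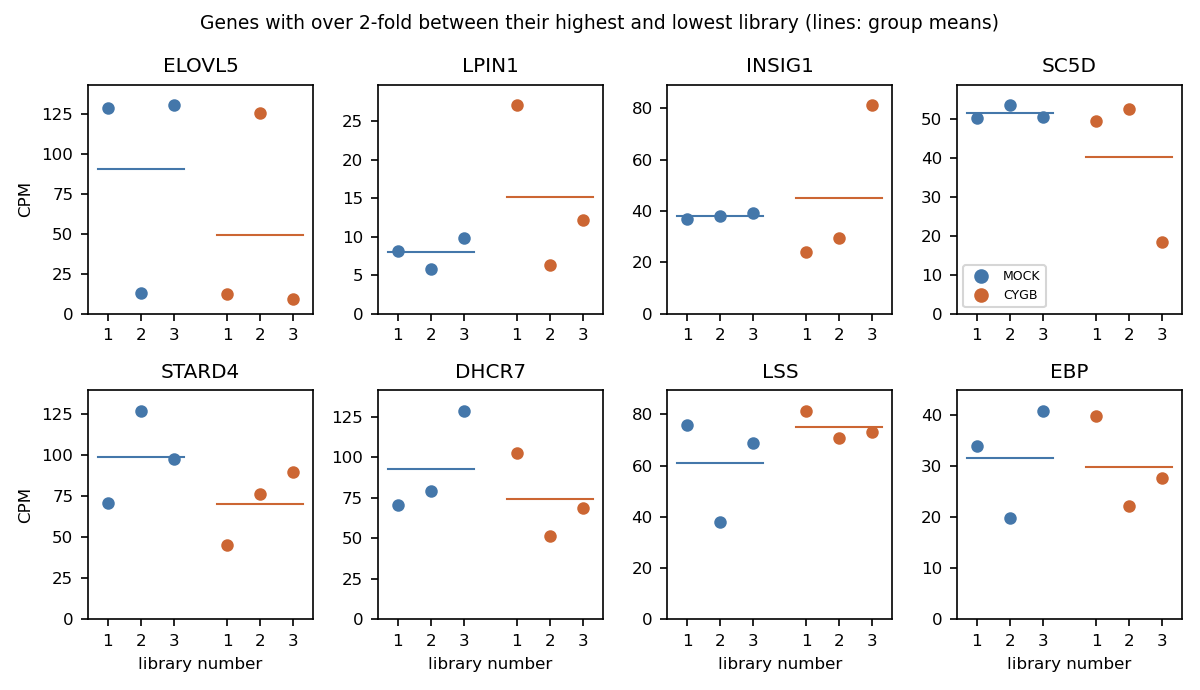
CPM of the 8 genes whose highest library was over 2-fold above their lowest, for MOCK (blue) and CYGB (orange) libraries 1 to 3, with lines at the group means. ELOVL5 splits into a high and a low level in both groups, and in INSIG1, SC5D and LSS 1 library stands apart.

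Over all 35 genes, the ratio of the highest to the lowest library was 1.29 in the median, beside 1.79 for all genes, and it exceeded 2 for 8 genes, while it exceeded 2 for 41.4% of all genes. The 8 genes were ELOVL5, LPIN1, INSIG1, SC5D, STARD4, DHCR7, LSS and EBP. Summed over the 5 genes of desaturation and elongation, which SCD dominates, the MOCK libraries had 1976 ± 37.9 CPM and the CYGB libraries 1735 ± 33.1 CPM (SD, n = 3 each). Most of this difference lay in SCD, with means of 1683 CPM in MOCK and 1493 CPM in CYGB. ELOVL5, whose split crossed the groups, had means of 90.8 and 49.1 CPM, and 1 of the 5 genes, FADS2, was higher in CYGB.

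The table counts reads per transcript, and how reads were divided among isoforms is not given in the sources used here. Of the 382 transcripts, 222 passed the expression filter. The threshold of the study's methods was passed by 2 of them (0.901%, against 1.02% of the 66609 transcripts tested), and 10 had an unadjusted p under 0.05 (4.50%, against 3.78%). By edgeR 0 had an adjusted p under 0.05, the lowest being 0.14, while DESeq2 gave 11 at an unadjusted p under 0.05 (4.95%, against 5.64% of all transcripts) and 2 at an adjusted p under 0.05 (0.901%, against 1.12%). The same 2 transcripts, of ACSS2 and SREBF2, passed both the threshold in edgeR and the adjusted p in DESeq2.

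ACSS2 (chr20:34872146-34927962, plus strand, GRCh38) had about the same total in both groups and a different main transcript. The coding transcript ENST00000360596 had 735, 698 and 750 counts in MOCK and 1931, 2078 and 2365 in CYGB. ENST00000477932, annotated as a target of nonsense-mediated decay, had 1132, 1501 and 1683 counts in MOCK and 185, 0 and 0 in CYGB. Each transcript separated the groups without overlap, in opposite directions, and their sum did not, at 1867, 2199 and 2433 counts in MOCK and 2116, 2078 and 2365 in CYGB. The log2 fold change of ENST00000360596 was 1.54 (SE 0.17, unadjusted p = 0.000154, adjusted p = 0.14 by edgeR's quasi-likelihood test, Benjamini-Hochberg adjusted). DESeq2 gave it a log2 fold change of 1.54 and an adjusted p of 2.01e-16, and its adjusted p over the alternatives run in edgeR was 0.109 to 0.995. It stayed between 1.48 and 1.60 with any library left out.

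Among the differences between the transcripts of ACSS2 are 5 coding exons in a row, numbers 3 to 7 of ENST00000360596, with 460 bases in all. Because 460 is not a multiple of the codon length, transcripts without them change reading frame. Transcripts that hold all 5 exons carried 29.9, 27.3 and 28.5% of the ACSS2 counts in MOCK and 79.5, 83.4 and 83.1% in CYGB. Transcripts that lack all 5 carried 60.1, 63.7 and 64.8% in MOCK and 12.2, 7.46 and 9.48% in CYGB. The remaining transcripts carried 6.75 to 10.0% of the counts in all libraries. The gene total was 2465, 2558 and 2637 counts in MOCK and 2431, 2492 and 2858 in CYGB, and here the groups overlapped. Reads over single exons were not counted, and ENST00000360596 (3065 bases) and ENST00000477932 (2450 bases) differ by more than these exons. The 5 exons are shown because the shares of transcripts with and without them separated the groups, from the GENCODE 29 transcript on the plus strand of GRCh38 at chr20:34913096-34913187, chr20:34913393-34913496, chr20:34913753-34913825, chr20:34914096-34914171 and chr20:34914323-34914437.
ACSS2 exon 3: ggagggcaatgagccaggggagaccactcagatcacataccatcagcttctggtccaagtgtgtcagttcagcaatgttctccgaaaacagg
ACSS2 exon 4: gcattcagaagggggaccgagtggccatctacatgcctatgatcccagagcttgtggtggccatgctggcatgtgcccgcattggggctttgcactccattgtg
ACSS2 exon 5: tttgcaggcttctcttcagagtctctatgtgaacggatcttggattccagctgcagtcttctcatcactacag
ACSS2 exon 6: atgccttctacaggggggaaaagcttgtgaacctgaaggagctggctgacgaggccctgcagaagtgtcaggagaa
ACSS2 exon 7: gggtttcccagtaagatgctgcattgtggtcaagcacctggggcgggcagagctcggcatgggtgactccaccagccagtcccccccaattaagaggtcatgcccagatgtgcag

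To place this shift among other genes, each gene with at least 2 transcripts and a mean of at least 500 counts was examined, a rule set after the ACSS2 values had been seen. A transcript whose share of its gene differed by at least 25 percentage points between the group means, with no overlap of the libraries, was found in 1 of 32 genes of lipid synthesis, ACSS2, and in 3.62% of all 9314 genes. The share of ENST00000360596 was 28.5% in MOCK and 81.9% in CYGB in the mean, a difference of 53.3 points. As a share of genes the count in lipid synthesis was not above the background.

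**Figure D4:**
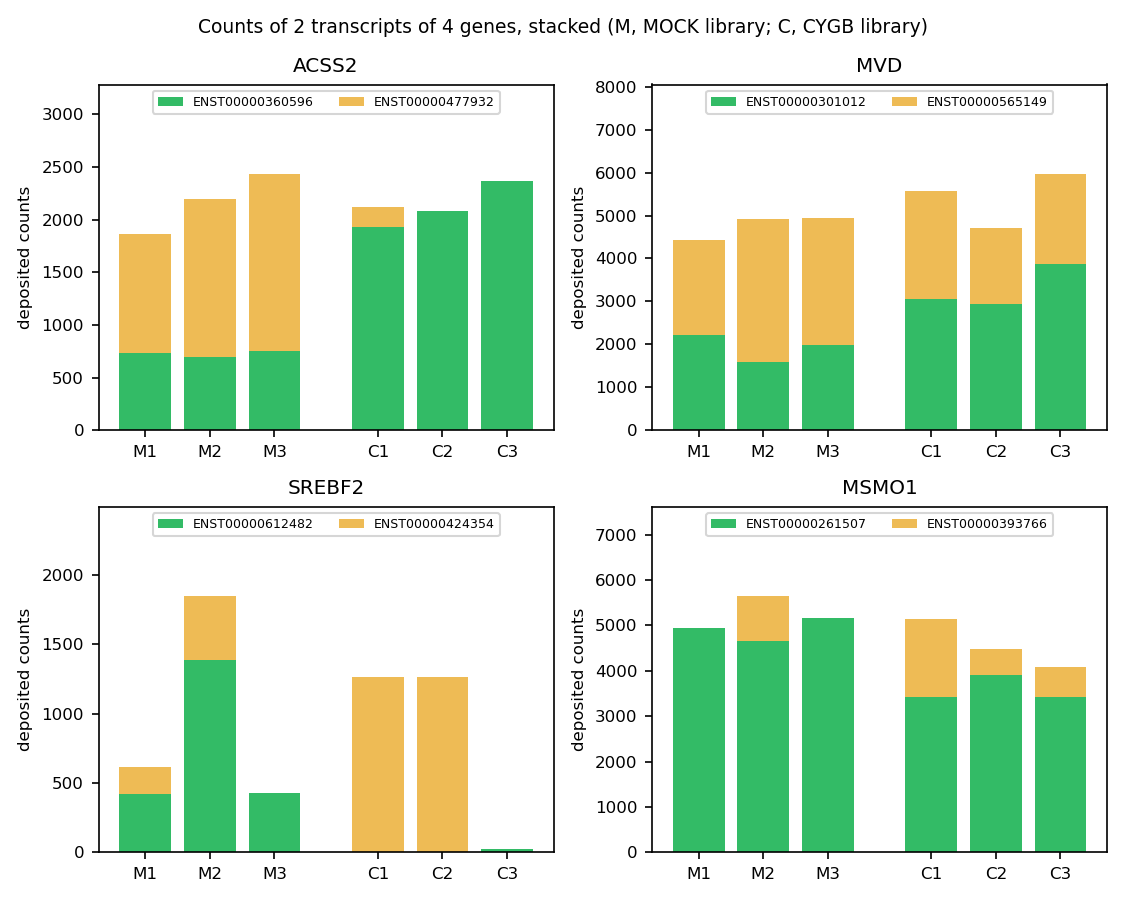
Deposited counts of 2 transcripts each of ACSS2, MVD, SREBF2 and MSMO1 in the 3 MOCK (M) and 3 CYGB (C) libraries, stacked. In ACSS2 the transcript without the 5 exons (yellow) makes up most of the bar in MOCK and is nearly missing in CYGB, while the height of the bars is alike.

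SREBF2 had the other transcript past the threshold. ENST00000612482 had 424, 1389 and 425 counts in MOCK and 4, 1 and 22 in CYGB, with no overlap (log2 fold change -6.35, SE 1.30, unadjusted p = 0.00322, adjusted p = 0.519 by edgeR's quasi-likelihood test, Benjamini-Hochberg adjusted). This transcript carries a coding exon of 100 bases that the main transcript skips, and it shares that exon with ENST00000424354, which had 194, 455 and 0 counts in MOCK and 1259, 1261 and 0 in CYGB. Summed, the transcripts with this exon had 618, 1844 and 425 counts in MOCK and 1263, 1262 and 22 in CYGB, and the groups overlapped. They made up 2.52 to 10.1% of SREBF2 in MOCK and 0.113 to 8.68% in CYGB. Use of the exon thus did not separate the groups, although the transcript did. Its call past the threshold was lost without CYGB 1 and with a replicate block. The exon, which marks both transcripts, lies on the plus strand of GRCh38 at chr22:41878659-41878758.
SREBF2 exon 10: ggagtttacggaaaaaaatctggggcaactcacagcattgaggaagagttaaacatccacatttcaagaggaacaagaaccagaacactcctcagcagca

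The other 8 transcripts with an unadjusted p under 0.05 belonged to MVD, MSMO1, LSS, FADS1, SC5D and SCD, each with an adjusted p of 1 by edgeR's quasi-likelihood test, Benjamini-Hochberg adjusted. In MVD, the coding ENST00000301012 had 2207, 1582 and 1974 counts in MOCK and 3050, 2943 and 3875 in CYGB, a log2 fold change of 0.76 (SE 0.21). The transcript of MVD with a retained intron, ENST00000565149, had 2228, 3332 and 2957 counts in MOCK and 2531, 1776 and 2089 in CYGB, which overlapped. In shares of MVD, the coding transcript averaged 34.3% in MOCK and 53.2% in CYGB and the retained intron 49.9% and 34.5%, both without overlap.

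The coding LSS transcript ENST00000397728 had 375, 256 and 752 counts in MOCK and 1089, 1025 and 1151 in CYGB (log2 fold change 1.23, SE 0.44). In MSMO1, ENST00000261507 had 4950, 4656 and 5175 counts in MOCK and 3422, 3915 and 3429 in CYGB (-0.47). The coding ENST00000393766 had 0, 985 and 0 counts in MOCK and 1728, 570 and 665 in CYGB, and with it the sums of 4950, 5641 and 5175 against 5150, 4485 and 4094 counts overlapped. In SC5D, the transcripts with an unadjusted p under 0.05 were ENST00000531140 and ENST00000534455, both with a retained intron and at most 90 counts in any library. The coding transcripts of SC5D were not among those called. Of these, ENST00000392789 had 1929, 2178 and 2047 counts in MOCK and 2100, 2 and 440 in CYGB (unadjusted p = 0.474 by edgeR's quasi-likelihood test). ENST00000264027 had 240, 350 and 394 counts in MOCK and 294, 2551 and 415 in CYGB (unadjusted p = 0.104 by the same test). In CYGB 2 the main transcript thus changed while the gene total of 2672 counts stayed within the range of MOCK. In CYGB 3 ENST00000392789 was also low, and there the gene total was 966 counts.

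The share of counts on coding transcripts varied among the 35 genes. It was at least 90% on average for 21 genes, among them SCD, FASN, ACLY and SQLE, and below 50% for EBP, SCAP, FDPS and LSS, beside 85.2 to 86.2% for all gene counts. EBP, which isomerises a sterol double bond, had 8.91 to 23.7% of its counts on coding transcripts. For ACSS2 the share was 29.1 to 30.4% in MOCK and 80.6 to 86.2% in CYGB.

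Another 43 genes of lipid synthesis, uptake and storage were read from a list beside the 35, and all were tested. By edgeR, 0 of 43 passed the threshold of the methods, 0 had an adjusted p under 0.05 and 0 an unadjusted p under 0.05, and DESeq2 also gave 0 at either p. The median log2 fold change was 0.02. The lowest was -0.49 for RNF145 and the highest 0.55 for ERLIN1, both of which encode proteins of the endoplasmic reticulum. Groups did not overlap for 3 of 43 genes (6.98%), which is below the 11.0% of all genes. RNF145 and ERLIN1 are named for their place in the list after their values were seen.

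Some of the genes overlap other genes or have pseudogenes, and whether reads were counted for the wrong one of a pair was not tested. ACAT2 overlaps TCP1 on the opposite strand, which had a mean of 19067 counts beside 3396 counts for ACAT2, and TM7SF2 overlaps VPS51. FDPS has 8 pseudogenes by name with 72.3 counts in the mean together, and HSD17B7 has 2 with 203.5. The study's methods name the library kit but do not state whether the libraries kept strand. Reads from opposite strands may therefore not have been told apart.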

How the data were processed

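RNA of 3 MOCK and 3 CYGB libraries of HCT116 cells was compared. The authors deposited 1 table of raw read counts per transcript that were not normalized. The submitters' processing notes name HISAT2, HISAT, DESeq2 and the build hg19, whereas GENCODE 29 lists 151393 of the 151453 gene-assigned transcripts, with an identical GRCh38 position for 99.5%, so coordinates are those of GRCh38. The counting tool is not given in the sources used here. Of the sample columns, 0 were left unmapped.

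Counts of the transcripts of each gene were summed, and genes (19987) and transcripts (66609) were filtered with filterByExpr (minimum count 10), scaled by TMM and fitted with edgeR 4.0.16 (glmQLFit and glmQLFTest) in R 4.3.3 over all 6 libraries, with Benjamini-Hochberg adjustment over all features and without a block for the replicate number. TPM was computed from the counts and the GENCODE 29 transcript lengths. DESeq2 1.42.0 was an alternative; limma 3.58.1, pandas 2.3.3 and matplotlib 3.10.9 were also used. The steps were tested on simulated data. The biological coefficient of variation was 36.6% for genes and 78.9% for transcripts. P-values measure the spread between these libraries, since how the replicates were grown is not stated.

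The genes, the list of 43 further genes and the markers were chosen with earlier results of these data known. Values in every library are given for genes with an unadjusted p under 0.05, without overlap of the groups, or with the highest or lowest log2 fold change or the highest level per length in their role, and for transcripts past the threshold. SQLE, MSMO1 and the transcripts of MVD, LSS, STARD4 and SC5D were added after their values were seen. Alternatives were DESeq2's size factors, DESeq2, no filter, a mean of at least 50 counts, a replicate block, each library left out and the most abundant transcript; including the 21225 transcripts without a gene was added after the data were seen.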

Additional observations from a re-analysis of the deposited data

How the results depend on the processing

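The number of the 35 genes past the threshold of the methods and the number with an adjusted p under 0.05 were 0 under each alternative run, and over the 18 genes named by the rule the lowest adjusted p under any alternative was 0.725 (DESeq2, FADS2), and over SQLE and MSMO1 it was 0.784. The number with an unadjusted p under 0.05 was 2, and it was 1 with DESeq2's size factors, with no filter, with the replicate block and when transcripts without a gene were counted in, and 0 to 3 with a library left out, being 0 without MOCK 2 or MOCK 3. Transcripts past the threshold numbered 2, against 5 with DESeq2, 1 with the replicate block and 3 to 5 with a library left out, being 5 without MOCK 1 or MOCK 3. Of the 43 further genes, 0 had an unadjusted p under 0.05, against 1 with no filter, 1 with the replicate block and 1 to 3 with a library left out, being 3 without CYGB 2. Apart from DESeq2's counts at a p under 0.05, shares over all features were computed for the main fit only. The other counts under alternatives thus have no background beside them and cannot be read as an excess. The median log2 fold change of the 35 genes stayed below 0, from -0.06 to -0.02 with a library left out. Of the 18 genes, 12 kept their direction under every alternative. The log2 fold change reversed for FDFT1 (0.19) and NPC1 (0.060) on the most abundant transcript alone. With a library left out it ranged from -0.0063 (without CYGB 3) to 0.054 for FASN, from -0.50 (without CYGB 3) to 0.54 for INSIG1, from -0.12 to 0.038 for ME1, reversed without MOCK 2 and CYGB 3, and from -0.19 to 0.0069 for SREBF2, reversed without CYGB 1 and CYGB 2. The cause of these changes was not tested. Whether the replicate numbers mark pairs is not stated. Deviations of same-numbered libraries from their group means had correlations of 0.03, 0.01 and 0.03 over genes. With 3 libraries per group, such values cannot show whether same-numbered libraries shared a culture or batch. In DESeq2, 1 gene and 4 transcripts had no adjusted p. With 3 libraries per group, the intervals of ELOVL5, LPIN1, INSIG1, SC5D, STARD4 and DHCR7 include changes over 2-fold, and a transcript's count depends on how reads were divided among isoforms.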
